A study of Mus musculus with 13 samples.

Results

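A set of 10 genes that restrain T cells or are tied to tolerance in dendritic cells was followed through 4 groups of sorted mouse spleen cells. The set joins checkpoint ligands, inhibitory receptors and metabolic enzymes by name, and each gene was read from the probe set that carries its symbol alone, taking the probe set with the highest mean where a gene had several. All 10 had such a probe set, of 22180 genes measured on the arrays.

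The ligands of the set hold back T cells or myeloid cells from outside. PD-L1 (Cd274) and PD-L2 (Pdcd1lg2) bind PD-1 on T cells and dampen signalling through the T cell receptor, and CD200 (Cd200) binds an inhibitory receptor, CD200R1, on myeloid cells. The receptors and enzymes act in the dendritic cell itself: TIM-3 (Havcr2), Axl and the gp49B receptor (Lilrb4a) dampen its activation, IDO1 and IDO2 turn tryptophan into kynurenine, and RALDH2 (Aldh1a2) makes retinoic acid. Several of these genes are known to be raised in mature dendritic cells that carry the chemokine receptor CCR7 and move to lymph nodes.

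The cells were CD205+CD8+ splenic dendritic cells of C57Bl/6 littermates labelled male. Cells of this kind are type 1 conventional dendritic cells (cDC1), which take up dying cells and show their antigens to CD8 T cells. Every mouse, controls included, carried a subcutaneous B16 melanoma that secretes the dendritic cell growth factor FLT3L, given at 6 weeks of age. After 5 days the mice received 100 ul of PBS into the peritoneum, either alone or carrying 50 ug of muramyl dipeptide (MDP), the piece of bacterial peptidoglycan that NOD2 senses, and spleens were taken 24 h later. The sorted cells were parted by surface CD103, the integrin encoded by Itgae, into CD103 high cells, with 3 arrays after MDP and 3 after PBS, and CD103 low cells, with 3 arrays after MDP and 4 after PBS. The labels do not state that each array is a mouse of its own, so a p-value here covers the spread between arrays, which may be technical, and their number limits the precision. Sources used here do not state the bounds of the CD103 gates.

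All values are log2 values as deposited. Across the 13 arrays the mean of 11 measured cDC1 markers lay between 10.74 and 11.21. The list holds genes of sorted proteins, such as Itgae and Ly75 (CD205), so this mean is not independent of the sort. It was far above the 95th percentile of the olfactory receptor genes, 5.12, which served as a measure of background. Of the 10 genes, 9 had a mean above that background, and Cd200r1, with a mean of 5.08, did not. In PBS mice Itgae differed 4.69-fold between the gates, with the CD103 high cells higher (adjusted p = 0.00376, limma). After MDP it was 4.62-fold higher in CD103 low cells than after PBS (adjusted p = 0.00838, a call lost in 6 of 24 alternatives), so that CD103 low cells of MDP mice had log2 values of Itgae (10.68, 10.07 and 9.64) around those of CD103 high cells of PBS mice (10.16, 10.22 and 10.07). The array MDP CD103 low replicate 1 stood apart: the mean of 19 markers of mature CCR7-type cells was 8.47 there and only 7.31 and 7.36 in its fellow replicates, so values that it moves are also given without it. Sex chromosome transcripts did not match the labelled sex in 7 arrays, which had Xist values of 10.98 to 11.21 and low Y-linked transcripts. The other 6 arrays had Xist values of 4.47 to 6.69 and high Y-linked transcripts. Differences within each of these sets are printed for some genes and comparisons only. Where none is printed, the sets did not always share a sign, as for Ido1 and Ido2 after MDP in CD103 low cells.

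Cd274 and Pdcd1lg2 lie next to each other on chromosome 19, with 0 annotated genes between them, and both are known to respond to interferon and NF-kB signalling. Their promoter windows are shown because these 2 genes had the smallest p-values of the set for MDP against PBS in CD103 high cells. The RefSeq windows (GRCm38.p6) cover 250 bases before and 50 after a start site. They lie at chr19:29367188-29367487 for Cd274 and chr19:29410669-29410968 for Pdcd1lg2, both on the plus strand. The annotated Cd274 gene begins at 29362107, ahead of its window, and the bases around that start were not searched. Capitals mark a match to the interferon-stimulated response element, searched as GAAANNGAA on both strands.
Cd274: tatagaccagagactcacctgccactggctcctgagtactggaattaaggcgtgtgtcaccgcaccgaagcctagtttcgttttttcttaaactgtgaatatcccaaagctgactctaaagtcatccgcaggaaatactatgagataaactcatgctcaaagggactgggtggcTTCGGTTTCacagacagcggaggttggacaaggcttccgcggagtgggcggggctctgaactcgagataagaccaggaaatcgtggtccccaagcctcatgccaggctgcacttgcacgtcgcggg
Pdcd1lg2: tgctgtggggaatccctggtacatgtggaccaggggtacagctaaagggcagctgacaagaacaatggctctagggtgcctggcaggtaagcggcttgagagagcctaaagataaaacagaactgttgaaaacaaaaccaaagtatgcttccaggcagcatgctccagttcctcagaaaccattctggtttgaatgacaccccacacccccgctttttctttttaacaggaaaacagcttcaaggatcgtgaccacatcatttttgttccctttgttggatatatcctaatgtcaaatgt
The match in the Cd274 window lies on the minus strand and starts 76 bases before the start site, and the Pdcd1lg2 window held none. Of the 32851 promoter windows in the table, 8.56% held this motif. An NF-kB motif, searched as GGNNNTTCC, was in 18.5% of windows, and a STAT motif, TTCNNNGAA, in 8.30%. Windows were found for 6 of the 10 genes (Cd274, Pdcd1lg2, Cd200, Havcr2, Axl and Aldh1a2), of which 1 held the NF-kB motif (Havcr2), 1 the interferon motif and 0 the STAT motif. A match describes the letters in the window and shows no binding. Other forms of these motifs were not searched, so a window without a match may still hold a site.

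In CD103 high cells 9 of the 10 log2 differences, MDP minus PBS, were below 0, with a median of -0.35 against -0.013 over all genes. The ligands Cd274 and Pdcd1lg2, the receptor Lilrb4a and the enzyme Aldh1a2 were lower in every MDP CD103 high array than in any PBS CD103 high array. None of the 10 passed an adjusted p of 0.05 with all 13 arrays, in a comparison in which 1.82% of all genes did. Cd274 passed once MDP CD103 low replicate 1 was left out, and the other 9 did not. At an unadjusted p under 0.05, 4 of the 10 were lower (Cd274, Pdcd1lg2, Axl and Lilrb4a), against 6.56% of all genes, and the 4 genes with no overlap compare with 10.05% of all genes. In bulk RNA, fewer cells that make a transcript and less of it per cell cannot be told apart.

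**Figure D1:**
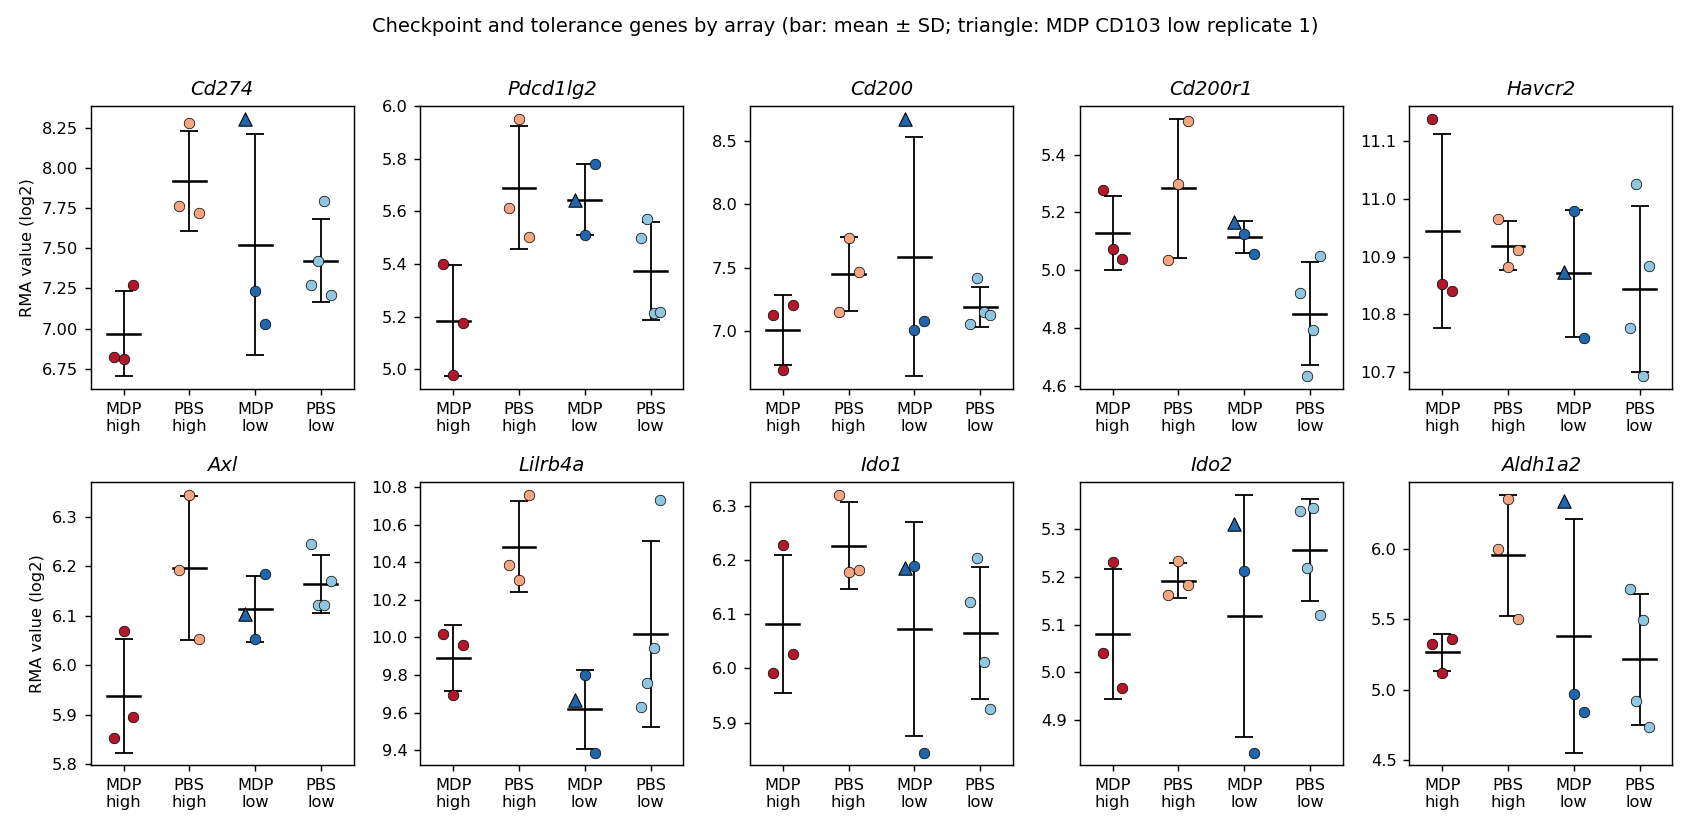
Log2 RMA value (y axis) of each of the 10 genes in each of the 13 arrays, grouped by injection and CD103 gate, with the group mean ± SD; the triangle is MDP CD103 low replicate 1. The 3 MDP CD103 high arrays lie below the 3 PBS CD103 high arrays for Cd274, Pdcd1lg2, Lilrb4a and Aldh1a2, and the triangle is the highest point of all for Cd274 and Cd200.

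Cd274 (probe set 17358544, Entrez gene 60533) encodes PD-L1, the broadly expressed ligand of PD-1. Its log2 values were 6.82, 6.81 and 7.27 in MDP CD103 high arrays, against 7.76, 8.28 and 7.72 in PBS CD103 high arrays. Among CD103 low cells they were 8.31, 7.24 and 7.03 after MDP, against 7.27, 7.42, 7.79 and 7.21 after PBS. MDP CD103 high cells were thus the lowest group, and the single high value after MDP in CD103 low cells was that of replicate 1. In CD103 high cells the log2 difference, MDP minus PBS, was -0.95 ± 0.28 (SE), with a 95% interval of -1.57 to -0.34, or 1.94-fold lower (adjusted p = 0.130). Without MDP CD103 low replicate 1, an array outside this comparison that enters the shared estimate of the spread, the difference was the same, its SE was 0.19, and it passed the threshold (adjusted p = 0.0177), where 2.68% of all genes passed. Over the 24 alternatives the adjusted p ran from 0.0177 to 0.741, and it also passed with array weights (adjusted p = 0.0448). Within the arrays with high Y-linked transcripts the difference was -0.90 (1 against 1), and within those with high Xist it was -0.98 (2 against 2).

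In CD103 low cells the response of Cd274 to MDP turned on that array. The log2 difference was 0.10 with a 95% interval of -0.47 to 0.67 over all arrays, and -0.29 with an interval of -0.72 to 0.14 without replicate 1. Within the arrays with high Y-linked transcripts, replicate 1 among them, it was 0.45 (2 against 2), and within those with high Xist it was -0.51 (1 against 2). The response in CD103 high cells minus that in CD103 low cells was -1.05 ± 0.39 (SE, adjusted p = 0.399), or -0.66 ± 0.27 without replicate 1 (adjusted p = 0.583). A difference between the gates in the response of Cd274 was not shown by this test.

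Pdcd1lg2 (probe set 17358552, Entrez gene 58205) encodes PD-L2, another ligand of PD-1, made mostly by antigen-presenting cells. Its log2 values were 5.40, 4.98 and 5.18 in MDP CD103 high arrays, against 5.61, 5.95 and 5.50 in PBS CD103 high arrays. They were 5.64, 5.51 and 5.78 in MDP CD103 low arrays, against 5.50, 5.57, 5.22 and 5.22 in PBS CD103 low arrays. These values sit close to background, and replicate 1 of the MDP CD103 low group did not stand out among them. The log2 difference after MDP was -0.50 ± 0.14 (SE) in CD103 high cells (95% interval -0.82 to -0.19, adjusted p = 0.115) and 0.27 ± 0.13 in CD103 low cells (95% interval -0.023 to 0.56, adjusted p = 0.818). The difference of these responses was -0.77 ± 0.20, with an adjusted p of 0.155 over all arrays and of 0.293 without replicate 1. The difference in CD103 high cells was not equal in the sex-transcript sets, at -0.10 within the arrays with high Y-linked transcripts (1 against 1) and -0.70 within those with high Xist (2 against 2).

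Cd200 (probe set 17330625, Entrez gene 17470) encodes the ligand of CD200R1. Values of 7.12, 6.70 and 7.21 were found in MDP CD103 high arrays, against 7.15, 7.73 and 7.47 in PBS CD103 high arrays. Within the CD103 low gate the MDP values were 8.67, 7.01 and 7.08, against 7.05, 7.42, 7.15 and 7.13 after PBS. The groups overlapped in both gates, and replicate 1 held the highest value of the 13 arrays. With all arrays the log2 difference after MDP was -0.44 ± 0.34 (SE) in CD103 high cells (adjusted p = 0.647) and 0.40 ± 0.32 in CD103 low cells (adjusted p = 0.859). Without replicate 1 the CD103 high value had an SE of 0.16, a 95% interval of -0.79 to -0.093 and an adjusted p of 0.218. The CD103 low value turned to -0.15 ± 0.17, with a 95% interval of -0.52 to 0.22.

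Among the receptors, Lilrb4a (probe set 17233226, Entrez gene 14728) encodes gp49B, whose cytoplasmic tyrosine motifs recruit phosphatases. Its log2 values were 10.02, 9.69 and 9.96 in MDP CD103 high arrays, against 10.38, 10.31 and 10.76 in PBS CD103 high arrays. They were 9.67, 9.80 and 9.39 in MDP CD103 low arrays, against 9.63, 9.76, 9.95 and 10.73 in PBS CD103 low arrays. The values lay apart in CD103 high cells and overlapped in CD103 low cells, where PBS replicate 6 was far above the other 3. The log2 difference after MDP was -0.59 ± 0.23 (SE, 95% interval -1.10 to -0.085, adjusted p = 0.286) in CD103 high cells and -0.40 ± 0.22 (95% interval -0.87 to 0.074, adjusted p = 0.826) in CD103 low cells. Without PBS replicate 6 the CD103 low value was -0.16 ± 0.15 (adjusted p = 0.985). Over all arrays their difference was -0.19 ± 0.32 (adjusted p = 0.895), so that the test did not part the gates. Another probe set, shared with the paralog Lilr4b, averaged 8.92 ± 0.17 in MDP CD103 high cells and 9.45 ± 0.33 in PBS CD103 high cells (SD, n = 3 each). In CD103 low cells that probe set averaged 8.51 ± 0.24 after MDP (SD, n = 3) and 8.60 ± 0.54 after PBS (SD, n = 4). Probes may read both paralogs, so the Lilrb4a values are uncertain to that extent.

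Axl (probe set 17488032, Entrez gene 26362), a receptor tyrosine kinase that binds Gas6 on dying cells, had log2 values of 5.85, 6.07 and 5.89 in MDP CD103 high arrays, against 6.19, 6.34 and 6.05 in PBS CD103 high arrays. The groups overlapped by 1 array on each side, and the log2 difference was -0.26 ± 0.088 (SE, 95% interval -0.45 to -0.068, adjusted p = 0.199). Axl differed by -0.051 ± 0.082 in CD103 low cells.

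Cd200r1 (probe set 17325861, Entrez gene 57781), the receptor of CD200, is read at background level, so its differences carry little weight. Its log2 values were 5.17, 5.13 and 5.06 in MDP CD103 low arrays, against 4.92, 4.63, 4.79 and 5.05 in PBS CD103 low arrays, with no overlap. The log2 difference of 0.27 ± 0.12 (SE) did not pass (adjusted p = 0.814). Cd200r1 was the 1 gene of the set that was higher at an unadjusted p under 0.05 after MDP in CD103 low cells, against 3.05% of all genes, and the 1 without overlap, against 2.98%. In that comparison 0 of the 10 passed the adjusted threshold, as did 0.00451% of all genes, and the median of the set was 0.062, or -0.098 without replicate 1, against 0.0042 over all genes.

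Havcr2 (probe set 17248809, Entrez gene 171285) encodes TIM-3, a receptor that restrains cDC1 in tumours, and was the steadiest of the 10. All 13 log2 values lay between 10.69 and 11.14. The log2 difference after MDP was 0.025 in CD103 high cells (95% interval -0.20 to 0.25) and 0.026 in CD103 low cells (95% interval -0.18 to 0.24). Its range over the arrays, 0.45, was at the 36.8th percentile of all genes. By contrast, Cd200, Aldh1a2, Cd274 and Lilrb4a had ranges from 1.97 down to 1.37, which lay between the 97.8th and the 99.6th percentile. The range of Cd200 was 1.04 over the 12 arrays without MDP CD103 low replicate 1, at the 94.6th percentile.

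Aldh1a2 (probe set 17519112, Entrez gene 19378) encodes RALDH2, the retinal dehydrogenase with which dendritic cells of the gut imprint homing and support regulatory T cells. It had log2 values of 5.32, 5.12 and 5.36 in MDP CD103 high arrays, against 6.00, 6.36 and 5.51 in PBS CD103 high arrays. They were 6.34, 4.97 and 4.84 in MDP CD103 low arrays, against 5.72, 4.92, 5.50 and 4.74 in PBS CD103 low arrays. Several of these CD103 low values lie below the background of 5.12. The CD103 high groups did not overlap, while replicate 1 alone lifted the MDP CD103 low group. The log2 difference after MDP was -0.69 ± 0.36 (SE, 95% interval -1.47 to 0.089, adjusted p = 0.450) in CD103 high cells, and -0.69 ± 0.25 (adjusted p = 0.219) without replicate 1. In CD103 low cells it was 0.17 ± 0.34 with all arrays and -0.31 ± 0.27 without replicate 1. That CD103 low difference was 0.83 within the arrays with high Y-linked transcripts (2 against 2, replicate 1 included) and -0.76 within those with high Xist (1 against 2). Within the sex-transcript sets the CD103 high difference was -0.18 (high Y-linked, 1 against 1) and -0.94 (high Xist, 2 against 2).

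The tryptophan enzymes differed little between the groups. Ido1 (probe set 17508188, Entrez gene 15930) had log2 values of 5.84 to 6.32 over the 13 arrays, and Ido2 (probe set 17508174, Entrez gene 209176) of 4.83 to 5.34, close to background. After MDP the log2 difference of Ido1 was -0.14 (95% interval -0.38 to 0.092) in CD103 high cells and 0.0073 (95% interval -0.21 to 0.23) in CD103 low cells. That of Ido2 was -0.11 (95% interval -0.36 to 0.14) and -0.14 (95% interval -0.37 to 0.099). A difference as large as that of Cd274 in CD103 high cells lies outside all 4 of these intervals.

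**Figure D2:**
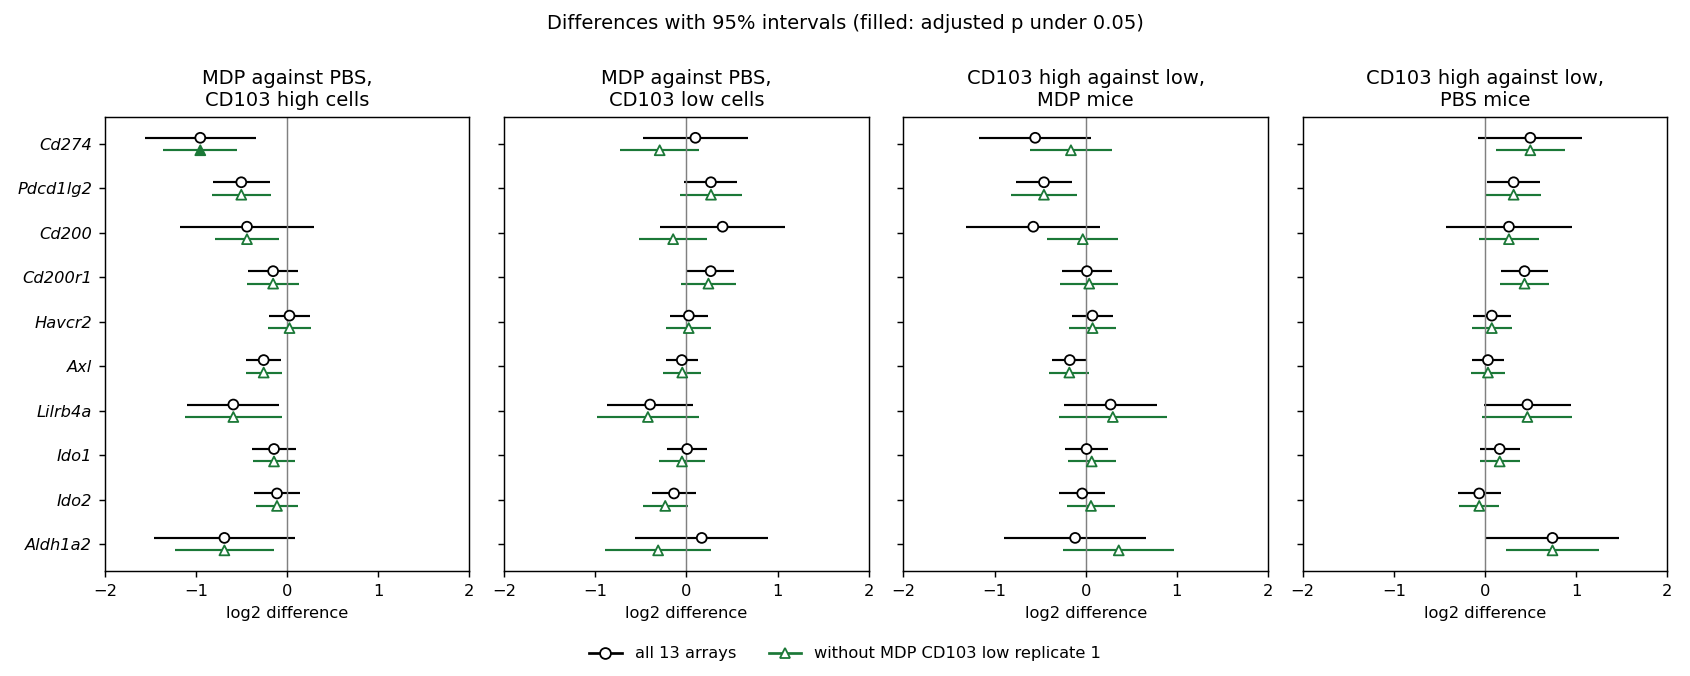
Log2 differences (x axis) of the 10 genes with 95% intervals for MDP against PBS in each CD103 gate and for CD103 high against low after each injection; circles use all 13 arrays and triangles leave out MDP CD103 low replicate 1. The 1 filled marker, past an adjusted p of 0.05, is Cd274 in CD103 high cells without that array.

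Between the gates of PBS mice 9 of the 10 log2 differences, CD103 high minus low, were above 0, with a median of 0.29, against -0.0030 over all genes. None of the 10 passed the adjusted threshold, as did 0.0766% of all genes, and 0 of the 10 had groups that did not overlap, against 4.48% of all genes that lay apart and higher. At an unadjusted p under 0.05, 3 were higher (Aldh1a2, Cd200r1 and Pdcd1lg2), against 4.33% of all genes. These values share the PBS CD103 high arrays with the MDP comparison above, so these comparisons are not independent. The log2 difference, CD103 high minus low, was 0.74 ± 0.34 for Aldh1a2 (SE, adjusted p = 0.578), 0.43 ± 0.12 for Cd200r1 (adjusted p = 0.322) and 0.31 ± 0.13 for Pdcd1lg2 (adjusted p = 0.553). Cd274 differed by 0.50 ± 0.26 (adjusted p = 0.659) and Lilrb4a by 0.47 ± 0.22 (adjusted p = 0.595). Within the sets with high Y-linked transcripts and with high Xist these differences kept their sign, at 0.68 and 0.58 for Aldh1a2, 0.67 and 0.31 for Cd200r1, 0.11 and 0.43 for Pdcd1lg2, 0.40 and 0.49 for Cd274, and 0.51 and 0.56 for Lilrb4a.

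After MDP the CD103 gates differed less evenly. Of the 10 genes 0 passed, as did 0.523% of all genes, or 116 genes, which became 190 with same-numbered arrays of an injection kept as a block. Pdcd1lg2 was the 1 gene of the set lower in CD103 high cells at an unadjusted p under 0.05, against 5.36% of all genes, and the 1 without overlap, against 7.93%. Its log2 difference was -0.46 ± 0.14 (SE, 95% interval -0.77 to -0.15, adjusted p = 0.254, or 0.511 without replicate 1). It was -0.17 within the arrays with high Y-linked transcripts (1 against 2) and -0.70 within those with high Xist (2 against 1). For Cd274 the difference was -0.55 ± 0.28 with all arrays and -0.16 ± 0.21 without replicate 1. For Cd200 it was -0.58 ± 0.34 and -0.033 ± 0.18, and for Aldh1a2 -0.12 ± 0.36 and 0.36 ± 0.28. Without replicate 1 the 3 MDP CD103 high arrays of Aldh1a2 thus lay above the remaining 2 MDP CD103 low arrays. The median of the set was -0.077, or 0.048 without replicate 1, against -0.014 over all genes.

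The responses of the 2 gates to MDP were also set against each other for every gene. None of the 10 differences passed, as did 0.0721% of all genes, or 16 genes, and 41 with the block. At an unadjusted p under 0.05, 3 were lower (Cd274, Pdcd1lg2 and Cd200r1), against 4.89% of all genes. The median over the set was -0.31, or -0.25 without replicate 1, against -0.012 over all genes.

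Within an injection the arrays that share a replicate number also share a set of sex chromosome transcripts, which gives 4 pairs of gates. CD103 high minus low of Aldh1a2 was 0.36 and 0.27 in the MDP pairs, against 0.51 and 0.77 in the PBS pairs, so that all 4 pairs were above 0. For Pdcd1lg2 it was -0.11 and -0.80 in the MDP pairs, against 0.40 and 0.29 in the PBS pairs. For Cd274 it was -0.41 and -0.22, against -0.027 and 0.51, and for Lilrb4a 0.22 and 0.31, against 0.44 and 0.025. Values above 0 in all 4 pairs were thus not particular to Aldh1a2. Lilrb4a had them too, as did Cd200r1 and Havcr2, and the share of all genes was not computed. The pairs leave out MDP CD103 low replicate 1, which has no partner.

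Markers of mature CCR7-type dendritic cells differed between the same groups. The list held 19 measured genes, none of them a member, and 18 lay above background. Its mean log2 value was 6.58 to 6.88 in MDP CD103 high arrays, against 7.35 to 7.75 in PBS CD103 high arrays. It was 7.31 to 8.47 in MDP CD103 low arrays, against 7.19 to 7.45 in PBS CD103 low arrays. Ccr7 itself, the receptor that guides these cells, was 7.41, 7.24 and 7.85 in MDP CD103 high arrays, against 9.04, 9.58 and 9.29 in PBS CD103 high arrays, a log2 difference of -1.80 ± 0.34 (SE, adjusted p = 0.0194). That call was lost in 6 of 24 alternatives, of which 4 left out an array of the groups compared. After MDP in CD103 high cells 4 of the 19 fell (Birc3, Ccl5, Ccr7 and Relb), and 11 without MDP CD103 low replicate 1, with all 19 below 0 and a median of -0.68. The part of mature cells in the differences of Cd274, Cd200 and Aldh1a2 was not tested.

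**Figure D3:**
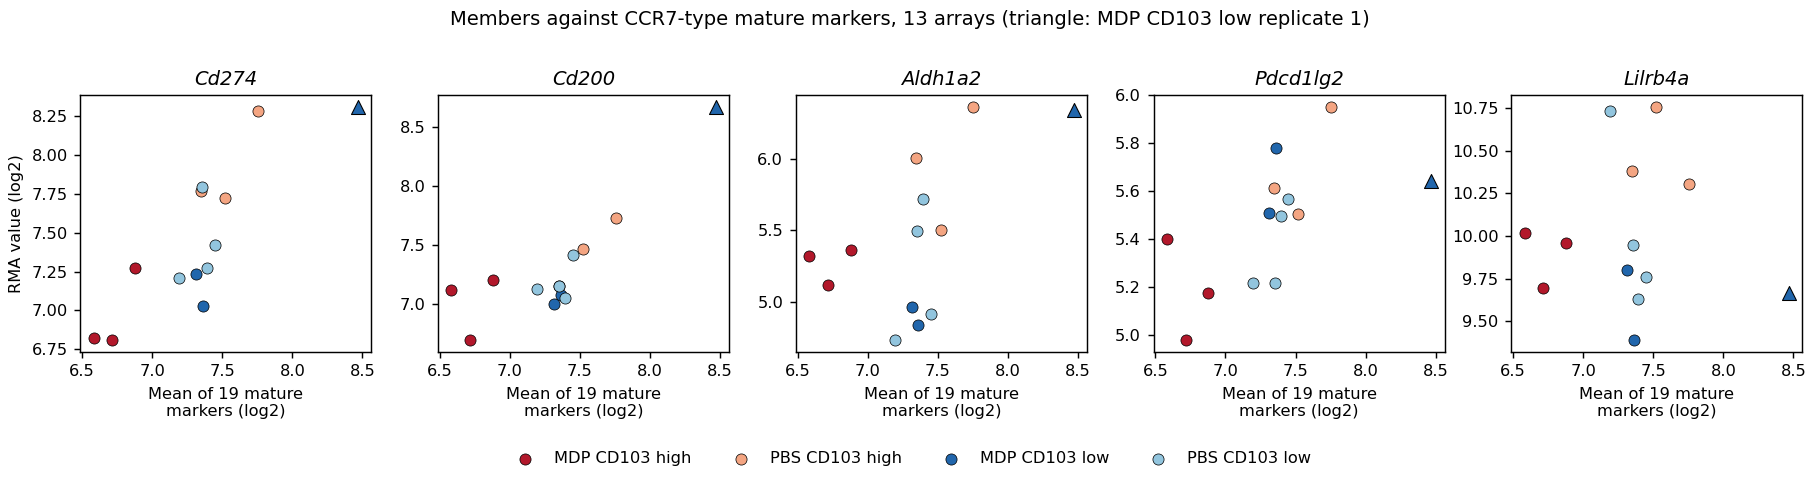
Log2 RMA value of Cd274, Cd200, Aldh1a2, Pdcd1lg2 and Lilrb4a (y axes) against the mean log2 value of 19 markers of mature CCR7-type cells (x axis) in the 13 arrays, coloured by group. The MDP CD103 high arrays lie at the left, at 6.58 to 6.88, and MDP CD103 low replicate 1 (triangle) at the right, at 8.47, where Cd274 and Cd200 are highest and Lilrb4a, at 9.67, is not.

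Other cell types could also carry these genes. The macrophage and monocyte list (17 measured, 10 above background) averaged 5.45 to 5.58 in MDP CD103 high arrays, against 5.58 to 5.65 in PBS CD103 high arrays, and 5.57 to 5.80 in MDP CD103 low arrays, against 5.45 to 5.74 in PBS CD103 low arrays. None of its genes passed after MDP in CD103 high cells with all arrays, and Spic, at -0.75 ± 0.26 (SE), passed without MDP CD103 low replicate 1. The cDC2 list (10 measured, 7 above background) lay between 5.33 and 5.66 in all arrays, and its 1 call was Sirpa, between the gates of MDP mice. Of the plasmacytoid list (9 measured) Cd300c and Pacsin1 fell after MDP in CD103 high cells, and of the B cell list (7 measured, 2 above background) Fcrla fell. In that comparison 6 of the 9 and 5 of the 7 genes were below 0, with medians of -0.058 and -0.073. Between the gates of PBS mice Cd300c, Pacsin1 and Fcrla also passed, with 0.75 to 0.90 more on the log2 scale in CD103 high cells. Those calls were lost in 12 (Cd300c), 10 (Pacsin1) and 6 (Fcrla) of 24 alternatives. The rest of these lists did not share that direction: between these gates 4 of 9 plasmacytoid and 5 of 7 B cell genes were below 0. The list medians there were 0.093 and -0.077. Neutrophil, T cell and natural killer cell lists each had 1 gene above background and the B16 melanoma list 2, with 0 calls. Cell cycle genes moved the other way: the mean of 9 was 9.15 to 9.25 in MDP CD103 high arrays, against 8.30 to 8.61 in PBS CD103 high arrays, and 7 of the 9 rose. The part of these in the differences of the set was not tested.

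Partners of the set were measured too, from lists drawn up around each pathway. Of 13 receptors and ligands that pair with its proteins, 1 fell after MDP in CD103 high cells and 0 rose (1 rose, Hmgb1, without MDP CD103 low replicate 1). The gene that fell was Cd80, which binds CD28 and CTLA-4 on T cells and PD-L1 on its own membrane. Its log2 values were 9.60, 9.55 and 9.78 in MDP CD103 high arrays, against 10.22, 10.45 and 10.12 in PBS CD103 high arrays, with no overlap. The log2 difference was -0.62 ± 0.14 (SE, adjusted p = 0.0465), and it did not pass with the block (adjusted p = 0.0534) or in 17 of the 24 alternatives in all. No gene of this list passed in the other comparisons, and Pdcd1, which encodes PD-1, averaged 4.57 ± 0.11 in MDP CD103 high cells and 4.40 ± 0.23 in PBS CD103 high cells (SD, n = 3 each), below background.

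Of 21 other checkpoint molecules 0 passed in any comparison with all arrays. The smallest p after MDP in CD103 high cells was that of Entpd1, which encodes the ectonucleotidase CD39, at -0.41 ± 0.13 (SE, adjusted p = 0.183), and it passed without MDP CD103 low replicate 1. Timd4, a phosphatidylserine receptor, differed by -0.54 ± 0.18 (adjusted p = 0.198). Tigit, an inhibitory receptor better known from T cells, had log2 values of 5.12, 5.29 and 5.90 in MDP CD103 low arrays, against 4.41 to 4.99 in PBS CD103 low arrays. The log2 difference was 0.76 ± 0.19 (SE, adjusted p = 0.706). The PBS values lie below the background of 5.12 and the MDP values start at it, which limits what this difference shows.

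Of 19 inhibitory receptors and phosphatases measured, 0 passed in the MDP comparisons with all arrays. Pirb, a paired immunoglobulin-like receptor that binds MHC class I, came closest, at -0.42 ± 0.098 (SE, adjusted p = 0.0507) in CD103 high cells, and Cd300lf differed by 0.55 ± 0.14 (adjusted p = 0.0827). Both passed without MDP CD103 low replicate 1. Sirpa, the receptor for CD47 and also a marker of cDC2, had log2 values of 5.33, 5.36 and 5.45 in MDP CD103 high arrays, against 5.77, 5.86 and 6.01 in MDP CD103 low arrays. The log2 difference of -0.50 ± 0.090 passed with all arrays (adjusted p = 0.0308) and not without replicate 1 (adjusted p = 0.117).

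The pathways of Axl and of retinoic acid showed no call with all arrays, for 9 and 19 measured genes. In the first, Pros1, a ligand of the same receptor family, differed by 0.25 ± 0.079 (SE, adjusted p = 0.157) after MDP in CD103 high cells, at background level. In the second, Dhrs3, which turns retinal back into retinol, had log2 values of 7.72, 7.73 and 8.03 in MDP CD103 low arrays, against 7.33 to 7.38 in PBS CD103 low arrays. Its log2 difference was 0.47 ± 0.081 (adjusted p = 0.381). Between the gates of PBS mice it was 0.44 ± 0.081 (adjusted p = 0.110), which passed without MDP CD103 low replicate 1.

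Of 19 genes of tryptophan and kynurenine metabolism, 1 fell after MDP in CD103 high cells. Afmid, the formamidase that acts on the product of the IDO enzymes, averaged 7.77 ± 0.15 in MDP CD103 high cells and 8.45 ± 0.14 in PBS CD103 high cells (SD, n = 3 each), a log2 difference of -0.68 ± 0.12 (SE, adjusted p = 0.0146). The call was lost in 3 of 24 alternatives. In CD103 low cells it differed by -0.31 ± 0.11 (adjusted p = 0.767).

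Of 17 measured receptors, kinases and transcription factors known to induce genes of the set, all above background, 1 fell after MDP in CD103 high cells. Relb, the NF-kB subunit of mature dendritic cells and also a marker in the CCR7-type list, averaged 7.86 ± 0.25 in MDP CD103 high cells and 8.93 ± 0.18 in PBS CD103 high cells (SD, n = 3 each). The log2 difference was -1.07 ± 0.24 (SE, adjusted p = 0.0413), and the call was lost in 13 of 24 alternatives. In this list 15 of 17 genes were below 0, with a median of -0.16 against -0.013 over all genes. In CD103 low cells Relb differed by 0.27 ± 0.23 (adjusted p = 0.866).

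**Figure D4:**
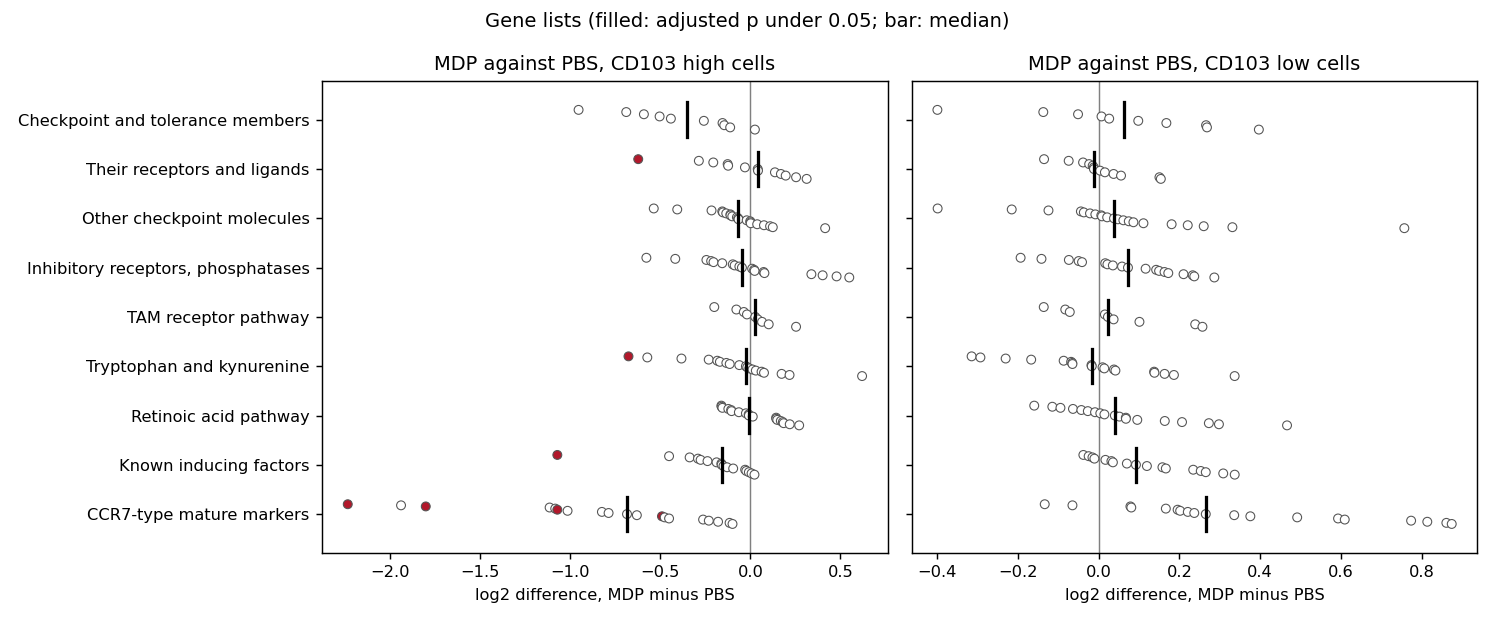
Log2 differences, MDP minus PBS (x axes, of different length), of each measured gene of the set and of the lists, in CD103 high cells (left) and CD103 low cells (right); bars mark medians and filled points passed an adjusted p of 0.05. In CD103 high cells the medians of the set and of the CCR7-type markers lie at -0.35 and -0.68, while the other 7 lists drawn lie between -0.16 and 0.041.

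The genes whose pattern over the 13 arrays was most like each member were found by the root mean square difference after centring each gene on its own mean. For Cd274 they were Cd40, the costimulatory receptor (0.14, against a spread of 0.47 of Cd274 about its own mean), the transcription factor Spic (0.18) and Ptafr, the receptor for platelet-activating factor (0.19). Of these, Cd40 is also a marker in the CCR7-type list and Spic one in the macrophage and monocyte list. For Cd200 they were the death receptor Fas (0.16), Laptm4b (0.17) and Dscaml1 (0.18), against a spread of 0.46. All 3 had their highest value in MDP CD103 low replicate 1, as Cd200 did. For Lilrb4a they were Ahr, the receptor for kynurenine and other ligands, the hyaluronan receptor Cd44 and the elongation factor Ell2 (0.20 to 0.21, against 0.41). Aldh1a2 was matched less closely, by Oasl1, Apol10b and Stk39 (0.27 to 0.30, against 0.52), and Pdcd1lg2 by Nectin4, Pou3f3 and Tslrn1 (0.14 to 0.15, against 0.26). For the 4 other members above background the nearest genes lay within 0.063 to 0.087, where the members' own spreads were 0.11 to 0.14.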

How the data were processed

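The authors deposited log2 probe set values of 13 arrays, made with RMA in Affymetrix Expression Console, per the submitters' processing notes; the sources used here name no version, array type or genome build. RMA makes the distributions of the arrays alike, so a change shared by most genes would be removed. Array medians lay between 5.00 and 5.13. Of 41345 probe sets, 23521 had 1 gene symbol in the platform annotation, 1814 had several and 16010 had none; the first were reduced to 22180 genes by the highest mean.

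The 13 arrays entered 1 linear model with a mean for each group (limma 3.58.1 in R 4.3.3: lmFit, contrasts.fit, eBayes; 9 residual and 3.86 prior degrees of freedom), two-sided, with Benjamini-Hochberg adjustment over all genes of a comparison and a threshold of 0.05. The fit was tested on simulated data. Scripts used Python 3.11.15, pandas 2.3.3, numpy 2.4.6, scipy 1.17.1 and matplotlib 3.10.9. Fold changes are ratios of RMA values, which understate changes near background.

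The members and lists were chosen with earlier results of these data known. Named were the 10 members, Itgae and Ccr7. The rule for the lists was up to 4 passing genes a list and comparison, or the 2 smallest p-values where none passed. Not all genes that meet this rule are printed. Ifnar1, Rarg, Lyz2 and Cd63 are among those left out. For each member above background (the 95th percentile of 1105 olfactory receptor genes) the 3 genes most like it were named. Hmgb1 and Pdcd1 were added after their values were seen. Listed genes with no probe set of their own, such as Nfkb1, Il4i1 and Lilr4b, were not analysed here.

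Replicate numbers recur across groups with no stated meaning. Deviations from the group means were correlated over 11710 genes above background. The correlation was above 0.1 in 4 of 4 pairs of same-numbered arrays within an injection (0.105 to 0.278). Across injections it was above 0.1 in 1 of 5 pairs (-0.129 to 0.385). That pair, PBS CD103 low and MDP CD103 high replicate 4, had the highest correlation of all pairs. Arrays of different number were not compared, so this check does not settle the pairing. Numbers were taken to pair the gates within an injection from it and not from the labels. Alternatives were each array left out, other sets of arrays, weights, variance priors, probe sets, filters, scalings, replicate blocks and a term for the Y-linked transcripts.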

Additional observations from a re-analysis of the deposited data

How the results depend on the processing

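Over 24 alternatives, 1185 values of the 10 genes were recomputed: 1133 kept their direction and side of the threshold, 0 lost a call, 2 gained one and 50 turned sign. The number of genes of the set past the threshold for MDP against PBS in CD103 high cells was 0, 0 to 1 when an array was left out, and 1 with array weights (Cd274, -1.03). In the other comparisons it was 0 throughout. With same-numbered arrays of an injection as a replicate block it stayed 0 in all 5 comparisons, Cd274 differing by -0.90 (adjusted p = 0.162) in CD103 high cells; the block, correlation 0.183, changed no call of the set. With the number as a fixed block over both injections 0 genes of the array passed in any comparison.

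Of the 50 turned signs, 32 came with an array left out and 18 with other alternatives, these 18 of values within 0.17 of 0. With array weights they were, for MDP against PBS in CD103 low cells, Cd274 (-0.084), Havcr2 (-0.0008), Ido1 (-0.062) and Aldh1a2 (-0.073); for CD103 high against low in MDP mice, Ido2 (0.040) and Aldh1a2 (0.0925); and for the difference of responses, Havcr2 (0.033). That value also turned with median centring (0.0076), repeated quantile normalization (0.036), which turned Ido1 in CD103 low cells (-0.0225) too, and the Y-linked term (0.028), which turned Havcr2 in CD103 low cells (-0.0026). With the block over both injections these were Havcr2 (-0.081) and Ido1 (-0.078) in CD103 low cells, Havcr2 in CD103 high cells (-0.11), Axl between the gates of PBS mice (-0.0026), and Ido2 (0.029) and Aldh1a2 (0.10) between those of MDP mice.

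With arrays left out in turn, MDP against PBS in CD103 low cells ranged over -0.29 to 0.35 for Cd274, -0.15 to 0.69 for Cd200, -0.028 to 0.087 for Havcr2, -0.0505 to 0.12 for Ido1, -0.23 to 0.0063 for Ido2, -0.31 to 0.44 for Aldh1a2 and -0.22 to 0.68 for Ccr7. In CD103 high cells Havcr2 ranged over -0.072 to 0.077. Between the gates of PBS mice Axl ranged over -0.041 to 0.10; between those of MDP mice Cd200r1 ranged over -0.060 to 0.059, Havcr2 -0.024 to 0.13, Ido1 -0.10 to 0.067, Ido2 -0.18 to 0.0575 and Aldh1a2 -0.39 to 0.36. The difference of responses ranged over -0.098 to 0.054 for Havcr2 and -0.12 to 0.12 for Ido2.

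Genes of the array past the threshold after MDP in CD103 high cells numbered 403 with all arrays, 82 to 594 with 1 array left out, 200 with only the 2 groups compared, 609 with a variance trend and robust fit, 699 over genes above background and 176 over all probe sets. A fit of 2 groups gives no difference of responses. Values near background, as of Cd200r1, Ido2, Aldh1a2 and Pdcd1lg2, limit what a difference can show. The causes were not tested.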
